A study of Triticum aestivum with 10 samples.

Results

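The cold-sterile anther series of the wheat line BS366 was followed along anther length. Its members were the 5 arrays labelled sterile, of 10 arrays in all, chosen by their labels and by no measured value. BS366 is a thermosensitive genic male sterile (TGMS) line, in which cold around meiosis makes the pollen sterile. It is a single line, selected from a natural mutant among doubled haploid lines. After vernalization in the field the plants were moved to phytotrons with 12 h photoperiods, where the sterile group spent 5 days at 10 °C and the fertile group stayed at 20 °C. In each treatment 1 array was made at each of 5 anther lengths, with 1.5 mm the shortest, then 2.0 mm, next 2.2 and 2.5 mm, and 3.0 mm the longest. The paper describes the anthers as meiotic, but it also states that mitosis gave way to meiosis I from 2.2 mm on. No length was replicated within a treatment, so the lengths themselves supplied the spread for every test. No label says whether the RNA of different lengths was taken from different plants.

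The anther wall encloses the pollen mother cells, which divide by meiosis and give the microspores. Its innermost layer, the tapetum, feeds the microspores and supplies material for their wall. RAFTIN proteins are made in the tapetum of wheat and rice and carried to the microspores. Outer wall layers hold chloroplasts. Histones, the proteins that package DNA, are made mostly while cells copy their DNA.

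The question was which transcripts differ along the cold-sterile series, and how anthers of 2.2, 2.5 and 3.0 mm (long, 3 arrays) differ from those of 1.5 and 2.0 mm (short, 2 arrays). The values were MAS5 signals, a linear measure of hybridization per probe set, the group of short probes that stands for one transcript. Signals below 4.05 were set to that floor and log2 was taken. After the 111 control probe sets were left out, 30590 brighter probe sets were tested with limma. Only 121 of these, for 76 genes, carried a gene name other than a LOC number, so most of the transcripts described in number have no name here.

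The 5 sterile arrays were alike in overall brightness, with mean signals of 118 to 122 and median signals of 20.8 to 22.0. Correlations of log2 signal between pairs of sterile arrays ran from 0.904 to 0.960 across the tested probe sets, which share platform and scaling and are not independent replicates. The lowest of these was that of the 1.5 and 3.0 mm arrays. Some controls differed widely between arrays. The 18S ribosomal RNA control read 2833 at 1.5 mm, and 50.1, 39.7, 134.7 and 32.3 at the longer lengths in order. Poly-A spike controls read 129.4, 260.4, 327.1, 780.8 and 289.2 along the series, highest at 2.5 mm. The log2 ratio of the 3′ to the 5′ probe set of the G6PDH control separated the length groups. It was 0.88 to 0.99 on the long sterile arrays and higher on both short ones, up to 1.36 at 2.0 mm. The same ratio for the ubiquitin control overlapped between the groups, with -0.79 at both 2.0 and 2.5 mm. The part of any of these controls in the results was not tested.

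Fewer probe sets differed 2-fold along the sterile series than along the fertile one. Over the 5 lengths, 7654 tested probe sets (25.0%) had a range of at least 2-fold in sterile anthers, against 15812 (51.7%) in fertile anthers. Neighbouring sterile lengths differed at least 2-fold in 1566 probe sets in the step to 2.0 mm, 1752 in that to 2.2 mm, 1376 in that to 2.5 mm and 2445 in that to 3.0 mm. The same steps in the fertile series gave 1862, 5219, 3147 and 6051 probe sets. With quantile normalization the fertile steps to 2.2 and 2.5 mm held 4257 and 2766, against 1818 and 1470 in sterile anthers. The fertile 2.2 mm array had hybridization controls of 770.8, against 286.5 to 356.0 on the other fertile arrays, and its part in the counts was not tested. Each step compares 1 array with 1 array and has no test. The last sterile step thus held the most probe sets, and in the step to 2.5 mm more were lower (831) than higher (545) at the longer length. The step to 2.0 mm was nearly even (798 higher, 768 lower), and with median centring it leaned to lower signals (666 higher, 904 lower). Of the probe sets with a 2-fold range in sterile anthers, 32.4% had their highest signal at 3.0 mm and 23.5% at 1.5 mm, whereas 25.7% had their lowest at 3.0 mm and 26.9% at 1.5 mm.

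**Figure D1:**
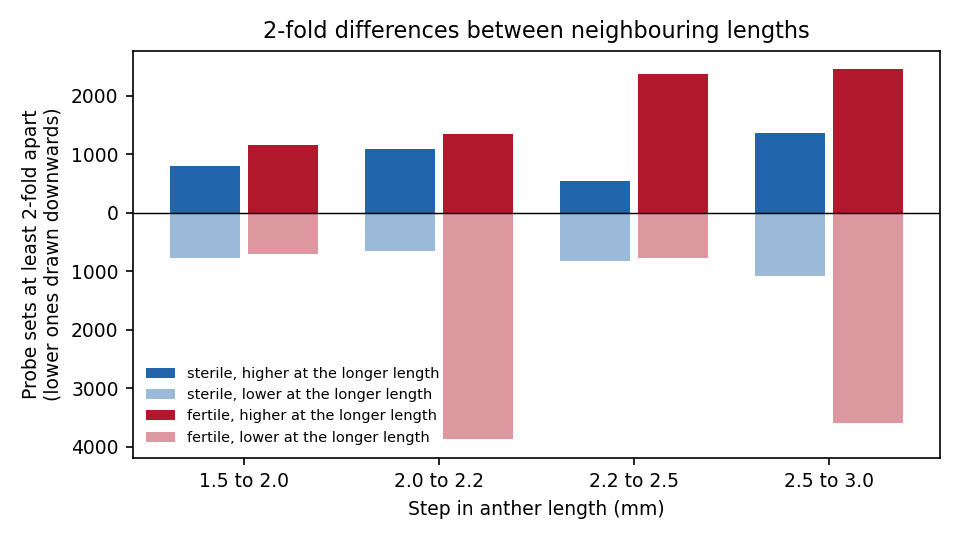
Number of tested probe sets that differed at least 2-fold between neighbouring anther lengths, in sterile (blue) and fertile (red) anthers, with those higher at the longer length drawn upwards and those lower drawn downwards; each bar compares 2 arrays. The sterile steps held 1376 to 2445 probe sets, and the fertile ones 1862 to 6051.

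Between the ends of the sterile series, 2077 probe sets (6.79% of those tested) were at least 2-fold higher at 3.0 mm than at 1.5 mm and 1568 (5.13%) were at least 2-fold lower. The path between the ends was seldom even. Among the 2077 that were higher at 3.0 mm, 65.1% were lower at 2.5 mm than at 2.2 mm, against 51.7% of all tested probe sets. Only 655 probe sets (2.14%) were higher at each of the 4 steps and 785 (2.57%) were lower at each. Among the named probe sets, 26 of 121 were at least 2-fold higher at 3.0 mm than at 1.5 mm and 9 were at least 2-fold lower. Those 26 included the 4 RAFTIN probe sets, 8 of 16 for photosynthesis and 4 of 7 for antioxidants, and 7 of the 9 were core histones.

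The slope of log2 signal on length passed an adjusted p of 0.05 in limma for 189 rising probe sets (0.618% of those tested) and 106 falling ones (0.347%), and 5612 (18.3%) had an unadjusted p under 0.05. The calls depended on single arrays. No probe set passed when the array at 1.5, 2.0 or 3.0 mm was left out, whereas 455 passed without 2.2 mm and 514 without 2.5 mm. No probe set passed either with all probe sets kept, with a higher floor, with a variance prior that ignored brightness or in a fit of all 10 arrays. The smallest adjusted p was 0.041. Of the 189 rising probe sets 3 had a gene name (TaRAFTIN1A, PRK and Prx1), and of the 106 falling ones 1 did (wcH2B-8). A further 6 rising and 5 falling probe sets belonged to genes known only by LOC numbers, for which no role is given here.

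In the comparison of long with short sterile anthers, 0 probe sets (0%) passed in limma, although 4588 (15.0%) had an unadjusted p under 0.05. The smallest adjusted p was 0.089, and an array left out changed the count only at 2.5 mm, to 1. The groups did not overlap, with means at least 2-fold apart, for 672 probe sets higher in long anthers (2.2%) and 324 lower (1.06%). Of the named probe sets, 10 were among those higher and 1 among those lower. The 10 were the 4 RAFTIN probe sets, PRK, BMY1, Prx1, CAT1, GA20ox1b and 1 probe set of the xylanase inhibitor XIP-I, whose 2.0 mm array alone was low (4.83, against 45.5 to 69.1 on the other arrays). The 1 lower was at2G04570. Without any limit on the size of the difference, the groups were apart for 27 named probe sets higher in long anthers, against 16% of all tested probe sets, and for 26 lower, against 19%.

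Among the called probe sets the steepest slopes belonged to some without a gene in the annotation. One read 10.3, 33.6, 53.9, 41.5 and 752.0 at the 5 sterile lengths and another read 23.1, 35.3, 55.9, 78.7 and 1355, each with a slope of 3.77 log2 units per mm (SE 0.56 and 0.61, adjusted p = 0.041). Most of both increases lay in the last step. In fertile anthers, where the first read 109.0, 73.7, 2231, 2595 and 3691, the jump lay at 2.2 mm. The steepest fall was that of a probe set with 163.3, 165.8, 51.0, 48.8 and 3.25 in sterile anthers (slope -3.55, SE 0.59, adjusted p = 0.041), whereas fertile anthers gave 121.5, 29.1, 1611, 3923 and 4562. The difference between its slopes, -8.04, had an adjusted p of 0.18. A further one fell with it in sterile anthers (129.7, 138.5, 36.9, 36.2 and 3.42, slope -3.38, SE 0.56, adjusted p = 0.041). The sterile signals of both at 3.0 mm were below the floor.

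RAFTIN, the tapetal family, gave the highest median slope of any gene list, 1.54 log2 units per mm over its 4 probe sets, beside -0.01 over all tested probe sets. TaRAFTIN1A rose with length in sterile anthers in the dimmer of its 2 probe sets, with 272.5, 512.6, 965.0, 719.6 and 1540 at the 5 lengths. Its slope was 1.57 (SE 0.23, adjusted p = 0.041), a 5.65-fold difference between 3.0 and 1.5 mm. All long anthers were above both short ones. The brighter TaRAFTIN1A probe set read 593.6, 535.1, 1484, 1092 and 2750, and its slope of 1.51 did not pass (SE 0.31, adjusted p = 0.060). In anthers, as in any bulk tissue, fewer cells of a type and less RNA per cell cannot be told apart.

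TaRAFTIN1B was likewise higher in long anthers but did not pass. Its dimmer probe set read 1087, 643.1 and 2102 in long sterile anthers, against 254.3 and 242.3 in short ones, and its brighter one read 1499, 1027 and 2797 against 705.6 and 655.6. Their long minus short differences were 2.20 (SE 0.41, adjusted p = 0.13) and 1.26 (SE 0.35, adjusted p = 0.19). The first is the largest such difference among the named probe sets tested, a 4.58-fold ratio. All 4 RAFTIN probe sets were lower at 2.5 mm than at 2.2 mm. They stand for closely related genes, and the array may not separate the copies.

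**Figure D2:**
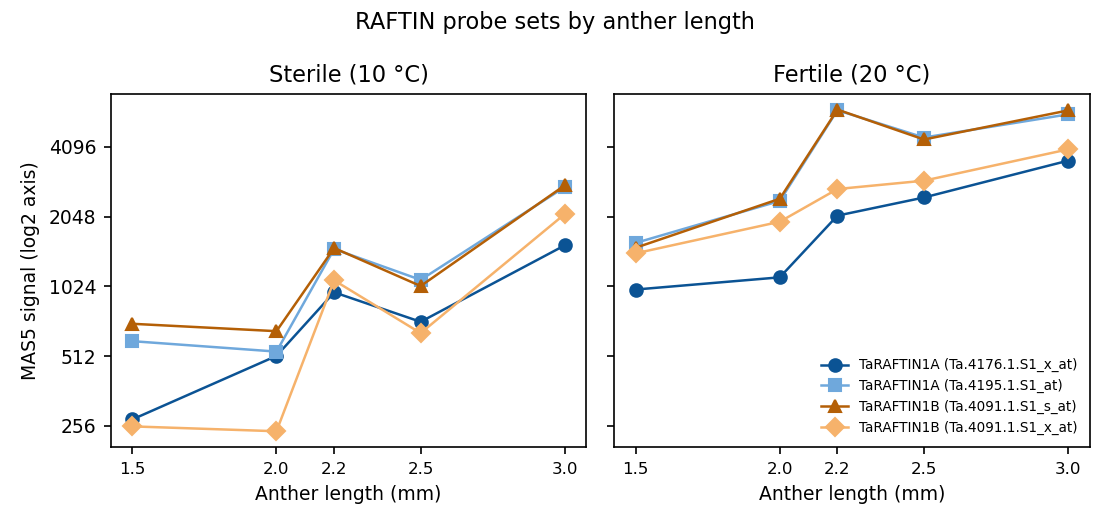
MAS5 signal (log2 axis) of the 4 RAFTIN probe sets at each anther length, 1 array per point, in sterile (left) and fertile (right) anthers. Sterile signals ran from 242.3 at 2.0 mm to 2797 at 3.0 mm, with a lower value at 2.5 mm than at 2.2 mm in all 4 probe sets.

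In 1 TaRAFTIN1A probe set, the signal of sterile anthers at 3.0 mm lay among those of fertile anthers at shorter lengths. For the dimmer TaRAFTIN1A probe set the sterile 3.0 mm array read 1540. Fertile anthers read 992.0, 1120, 2069, 2478 and 3575 along the series, so the sterile value lay between those of 2.0 and 2.2 mm and fertile anthers were above sterile anthers at each length. Its slope was 1.57 in sterile and 1.33 in fertile anthers, and the difference of 0.25 (SE 0.37) did not pass (adjusted p = 0.85).

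Photosynthesis genes gave mostly positive slopes in sterile anthers, 13 of 16 probe sets, with a median of 0.65 log2 units per mm. Only 1 of the 16 passed. PRK, phosphoribulokinase of the Calvin cycle, rose along the series with 57.5, 83.3, 188.0, 151.3 and 433.8 (slope 1.90, SE 0.27, adjusted p = 0.041). The sterile 3.0 mm array was 7.55-fold above that of 1.5 mm, and long and short anthers did not overlap. In fertile anthers PRK read 187.1, 217.9, 773.1, 1007 and 1573, above sterile anthers at each length.

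Several other chloroplast genes were higher in long anthers at lower slopes. The gene petC encodes the Rieske protein of the cytochrome b6f complex and read 1063, 1039 and 1683 in long sterile anthers, against 741.2 and 586.8 in short ones (difference 0.90, SE 0.22, adjusted p = 0.16). Trx-M, a chloroplast thioredoxin, read 233.2, 190.6 and 444.5 against 151.1 and 135.0 (0.92, SE 0.33, adjusted p = 0.26). PsbO, a subunit of the oxygen-evolving complex of photosystem II, read 1141, 837.8 and 1352 against 771.5 and 672.2 (0.60, SE 0.20, adjusted p = 0.23). None of the 3 overlapped between the groups, and none passed. PsbP, another subunit of that complex, read 682.0, 539.2, 1061, 628.5 and 1624 in its brighter probe set, where 2.5 mm fell among the short anthers.

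Rubisco large subunit, the chloroplast-encoded rbcl, did not share one direction. Its brightest probe set read 4874, 5998, 6299, 6308 and 6234 in sterile anthers, a slope of 0.22 (SE 0.10, adjusted p = 0.28). From 2.0 mm on these values were the highest signal on each array, and compression at the top of the range was not tested. A dimmer rbcl probe set read 50.5, 51.2, 59.9, 66.4 and 104.4, higher at each step, with a slope of 0.71 (SE 0.21, adjusted p = 0.13). Another gave the list's lowest slope, -0.67, with 227.8, 299.0, 232.9, 161.9 and 130.2. The array carries 8 tested rbcl probe sets, which may share transcripts. Of the 16 photosynthesis probe sets, 9 were higher in long anthers without overlap and none was lower, where all tested probe sets gave 16% and 19%.

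Sugar and starch genes had a median slope of 0.55 over 7 probe sets, 5 of them above 0 and 2 below, down to -0.63. Of the 7, 0 passed in limma and 3 (BMY1, 1-FEH and Pgk-1) had an unadjusted p under 0.05 for the slope, as did 18.3% of all tested probe sets. BMY1, a beta-amylase, read 370.4, 226.3 and 812.2 in long sterile anthers, against 98.7 and 115.3 in short ones. Its long minus short difference was 1.94 (SE 0.45, adjusted p = 0.15) and its slope 1.99 (SE 0.37, adjusted p = 0.052). 1-FEH, a fructan exohydrolase, read 295.2, 303.2, 445.4, 489.7 and 607.7, higher at each step, with a slope of 0.76 (SE 0.15, adjusted p = 0.059). Pgk-1, a phosphoglycerate kinase, read 512.1, 367.1 and 897.6 in long anthers, against 362.2 and 306.9 in short ones (0.73, SE 0.33, adjusted p = 0.35). AGP-S, the small subunit of ADP-glucose pyrophosphorylase, which makes the substrate for starch, stayed between 730.4 and 839.1 at all 5 lengths.

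The antioxidant list had a median slope of 0.89 over 7 probe sets of 4 genes, 6 of them above 0. Of the 7, 3 were of Prx1 and are not independent. The 4 probe sets higher in long anthers without overlap were those of Prx1 and CAT1, where all tested probe sets gave 16%. Prx1, placed here by its symbol, rose with 178.7, 204.2, 384.4, 348.7 and 687.5 in the brightest of its 3 probe sets (slope 1.31, SE 0.21, adjusted p = 0.041). Its other probe sets had slopes of 0.89 and 0.96 that did not pass. CAT1, a catalase, which breaks down hydrogen peroxide, read 133.9, 91.1 and 225.0 in long sterile anthers, against 48.4 and 50.5 in short ones. The difference was 1.50 (SE 0.34, adjusted p = 0.14), with no overlap. PER1, a peroxiredoxin, read 68.8, 59.1, 61.7, 48.9 and 54.2, with long and short anthers overlapping.

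**Figure D3:**
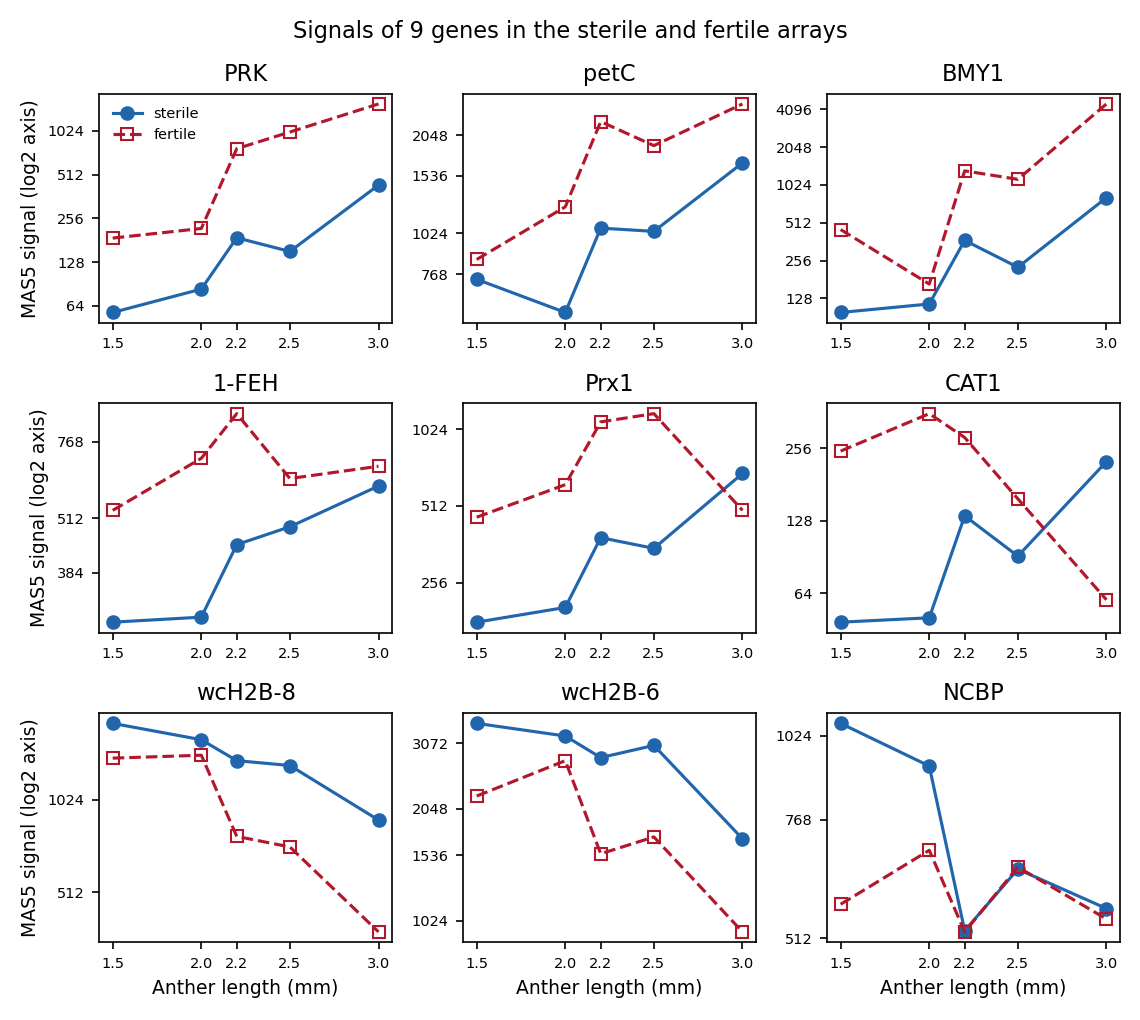
MAS5 signal (log2 axes, each panel with its own range) of 9 genes by anther length in sterile (blue, filled) and fertile (red, open) anthers, 1 array per point. PRK, Prx1 and wcH2B-8 passed the sterile trend test; CAT1 read 225.0 in sterile and 60.0 in fertile anthers at 3.0 mm.

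Histone transcripts ran the other way. Of the 20 probe sets for histones and the chromatin protein Hmgb3, 19 had a slope below 0, with a median of -0.39, and 13 were lower in long anthers without overlap while none was higher, where all tested probe sets gave 19% lower and 16% higher. Only 1 passed. A histone H2B, wcH2B-8, fell along the series in 1 of its 7 probe sets, with 1815, 1606, 1373, 1324 and 880.2, lower at each step (slope -0.68, SE 0.12, adjusted p = 0.044). The sterile 1.5 mm array was 2.06-fold above that of 3.0 mm. The other wcH2B-8 probe sets had slopes of -0.81 to -0.39 that did not pass. These 20 probe sets stand for only 6 genes, so many share a gene and are not independent.

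Most of the difference lay in the last step. Core histones (18 probe sets of H2A and H2B genes) had a median log2 signal 0.04, -0.19 and -0.05 relative to 1.5 mm at the middle lengths in order, and -0.76 at 3.0 mm. H2A-9, in the probe set with its steepest slope, read 2047, 2125, 1751, 1963 and 1002, of which the 3.0 mm value stood apart (slope -0.64, SE 0.19, adjusted p = 0.13). The H2B gene wcH2B-6 read 3471, 3210, 2809, 3029 and 1701 (slope -0.63, SE 0.15, adjusted p = 0.079). Without the 3.0 mm array the median slope of core histones was -0.10, against -0.48 with it. Hmgb3, by contrast, was lower at each step in 1 of its 2 probe sets, with 3132, 2750, 2578, 2542 and 2501, and did not pass (slope -0.21, SE 0.09, adjusted p = 0.28).

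In fertile anthers the median histone signal was lower earlier and by more. The core histones had a median of -0.62 at 2.2 mm and -1.97 at 3.0 mm relative to 1.5 mm, and a median slope of -1.34, beside -0.48 in sterile anthers. H2A-2 read 1084, 1101, 917.6, 1134 and 684.9 in sterile anthers, against 1231, 809.5, 424.2, 267.1 and 71.5 in fertile anthers. Its slopes differed by 2.40 (SE 0.37, adjusted p = 0.17), the largest difference among the histones. The H2B genes differed less between the series. The slope differences of wcH2B-6 were 0.16 (SE 0.38) and 0.22 (SE 0.34), and those of wcH2B-8 ran from 0.20 to 1.05. No histone passed the test of the difference between the series.

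**Figure D4:**
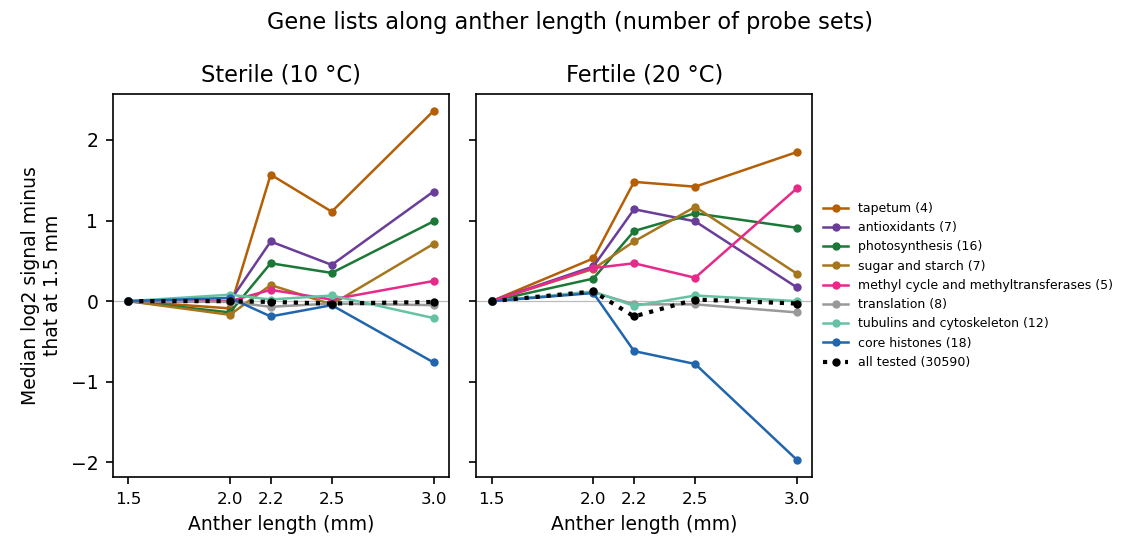
Median log2 signal of each gene list relative to the 1.5 mm array of the same treatment, by anther length, in sterile (left) and fertile (right) anthers; numbers of probe sets stand in the legend and all tested probe sets are dotted. At 3.0 mm the tapetum list stood at 2.36 and core histones at -0.76 in sterile anthers, against 1.85 and -1.97 in fertile anthers.

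Lists of genes of general cell function had median slopes near 0 along the sterile series, but their members differed. Slopes ran from -0.63 to 0.68 among translation genes and from -0.40 to 0.47 among cytoskeletal ones. Of the latter, 1 probe set was at least 2-fold higher at 3.0 mm than at 1.5 mm. Translation factors and ribosomal proteins (8 probe sets) had a median slope of -0.04, tubulins and cytoskeletal genes (12) one of -0.13, and methyl cycle genes and methyltransferases (5) one of 0.15, and 0 of their members passed in limma. Of these, 4 probe sets (NCBP, RPS29 and 2 of Tubb5) of 25 had an unadjusted p under 0.05 for the slope, about the 18.3% of all tested probe sets. The elongation factor TEF1 read 5017, 5304, 4573, 5081 and 4607 in its brighter probe set. NCBP, a cap-binding protein, differed most, with 525.2, 648.5 and 566.6 in long sterile anthers, against 1069 and 923.6 in short ones (-0.78, SE 0.14, adjusted p = 0.12). The cap-binding initiation factor eIF4E read 618.5, 727.0 and 644.2 against 878.6 and 728.5 (-0.27, SE 0.14, adjusted p = 0.40). RPS29, a ribosomal protein, lay the other way, with 82.9, 93.1 and 78.6 in long anthers and 40.9 and 59.4 in short ones (0.78, SE 0.22, adjusted p = 0.19). Another initiation factor subunit, eIF-2-beta, had a slope of -0.20 (SE 0.11, adjusted p = 0.38).

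Among the cytoskeletal genes, the beta-tubulin Tubb5 was lower at each step in 1 of 4 probe sets, with 1262, 1064, 1057, 996.7 and 810.3, a slope of -0.40 (SE 0.11, adjusted p = 0.098). Its other 3 probe sets had slopes of -0.30 to -0.19. PRO1, a profilin, stayed between 2717 and 2925 in its brighter probe set. SAHH, which clears the by-product of methyl transfer, read 3258, 3693, 3579, 3801 and 3829 in its brighter probe set, a slope of 0.15 (SE 0.09, adjusted p = 0.42). PEAMT1, a methyltransferase of choline synthesis, stayed between 704.6 and 741.0 up to 2.5 mm and read 918.7 at 3.0 mm. In fertile anthers it read 444.7, 692.9, 1473, 2076 and 3600, and its slopes differed by -1.89 (SE 0.28, adjusted p = 0.16). COMT1, a methyltransferase of lignin synthesis, read 173.9 to 236.0 at the 5 sterile lengths.

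Several named genes outside these groups were apart between the length groups without passing. The lactoylglutathione lyase lgul, which removes methylglyoxal, read 31.4, 37.6, 54.9, 61.6 and 77.9 in 1 of its 2 probe sets, higher at each step (slope 0.92, SE 0.22, adjusted p = 0.076). The other lgul probe set overlapped between long and short anthers (difference 0.02). TSA read 1434, 1424, 1675, 1661 and 2136 (slope 0.39, SE 0.11, adjusted p = 0.12). GA20ox1b, a gibberellin 20-oxidase of hormone synthesis, read 17.8, 30.4 and 28.5 in long anthers, against 13.7 and 10.4 in short ones (1.06, SE 0.45, adjusted p = 0.32). These 3 probe sets were higher in long anthers without overlap. Of the 24 tested named probe sets in no gene list, 4 were so, where all tested probe sets gave 16%.

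Lower in long anthers, in at least 1 probe set each, were FKBP70, APRT, UBC1, a proton pump and at2G04570. Of the 121 named probe sets tested, 26 were lower without overlap, where all tested probe sets gave 19%. FKBP70, a prolyl isomerase that helps fold proteins, read 1734, 1887 and 1546 in long sterile anthers, against 1972 and 2099 in short ones (-0.25, SE 0.12, adjusted p = 0.37). APRT, of purine salvage, read 1656, 1820 and 1648 against 2137 and 1861 (-0.22, SE 0.11, adjusted p = 0.39). Both differences were small. UBC1, a ubiquitin-conjugating enzyme, had -0.26 in 1 of 3 probe sets (SE 0.15, adjusted p = 0.46), but 0.00 in the brightest and 0.13 in the dimmest. The H+-ATPase, a proton pump, had -0.27 in 1 of 3 probe sets (SE 0.13, adjusted p = 0.39). Last, at2G04570 read 37.8, 6.46 and 38.6 in long anthers and 70.7 and 56.3 in short ones (-1.58, SE 0.74, adjusted p = 0.37), so the 2.5 mm array alone set most of its size.

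Seed storage proteins, which belong to the grain, were looked at as markers of another tissue. Of 17 probe sets for seed storage proteins 3 passed the brightness filter, with a median long minus short difference of -0.08, a median slope of -0.30 and no member apart between the groups. One of the 3, of ALP, was bright on every sterile array, with 966.5, 867.9, 863.8, 915.8 and 824.8, and the other 2 stayed below 60. Its part in the results was not tested.

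Setting the sterile slopes beside the fertile ones, the difference between the 2 series was tested over all 10 arrays. For the slope, 0 probe sets (0%) passed in limma, with 3653 (11.9%) at an unadjusted p under 0.05 and a smallest adjusted p of 0.12. Leaving out the fertile 1.5 mm array gave 900 calls, and leaving out the fertile 2.0 mm array gave 1. For the long minus short difference, 1 probe set (0.00327%) passed. This probe set, which has no gene in the annotation, read 71.9, 66.4 and 69.7 in long and 77.4 and 66.5 in short sterile anthers. In fertile anthers it read 2.89, 5.06 and 1.60 in long and 112.0 and 82.0 in short ones. The sterile difference was -0.05 and the fertile one -4.46, so that they differed by 4.41 (SE 0.38, adjusted p = 0.020). With the arrays of the 2 treatments paired by length, the same difference no longer passed (SE 0.44, adjusted p = 0.24). The call was also lost without a floor, with a higher floor or in a fit of only the brightest probe sets, and the long fertile signals were at or near the floor.

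**Figure D5:**
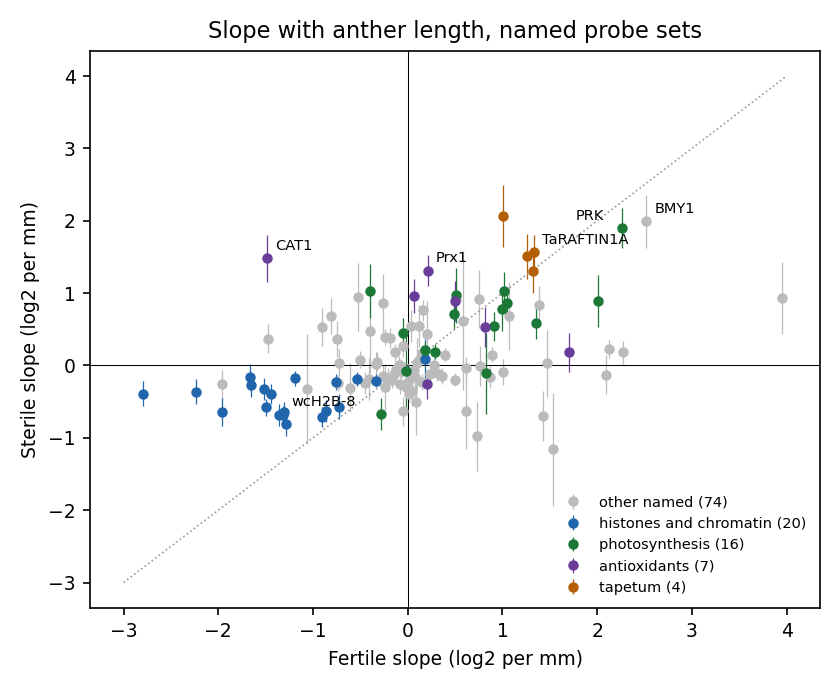
Slope of log2 signal on anther length (per mm) in sterile (vertical axis, bars are the SE from limma) and fertile anthers (horizontal axis) for the 121 named probe sets tested, coloured by list, with the dotted line marking equal slopes. Histones lie below 0 in both series apart from 1 probe set, and CAT1 has 1.48 in sterile and -1.49 in fertile anthers.

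The probe sets that rose in sterile anthers had no common sign of the fitted slope in fertile ones. Of the 189, 94 (49.7%) had a positive fertile slope, with a median fertile slope of 0.00, whereas 91 of the 106 falling ones (85.8%) also had a negative fertile slope, with a median of -1.03. Over all tested probe sets the 2 slopes had the same sign in 56.1%. Relative to 1.5 mm, the rising set had median differences of 1.12 at 2.2 mm and 1.87 at 3.0 mm in sterile anthers. The fertile medians of the same probe sets were 0.67 at 2.2 mm and -0.12 at 3.0 mm, below the sterile ones at both lengths. The set was chosen by its sterile slope, so a gap at the longest length can follow from that choice alone.

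CAT1 and Prx1 were among the named genes with a positive sterile slope and a higher signal in sterile than in fertile anthers at 3.0 mm. CAT1 read 48.4, 50.5, 133.9, 91.1 and 225.0 in sterile anthers, against 248.8, 356.0, 283.3, 157.6 and 60.0 in fertile anthers, with sterile below fertile up to 2.5 mm and above it at 3.0 mm. The slopes differed by 2.96 (SE 0.64, adjusted p = 0.18). The brightest Prx1 probe set read 687.5 in sterile anthers of 3.0 mm, against 492.3 in fertile ones, and was lower than fertile at each shorter length. Its slopes differed by 1.09 (SE 0.58, adjusted p = 0.49), so neither difference passed. PRK and BMY1 instead stayed below their fertile signal at each length, and their slopes differed by -0.36 (PRK, adjusted p = 0.85) and -0.53 (BMY1, adjusted p = 0.89).

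Across the tested probe sets, the sterile 3.0 mm array was closer to the fertile arrays at 2.2 and 2.5 mm than the shorter sterile arrays were. Its correlation with each of these fertile arrays was 0.917, where the other sterile arrays gave 0.836 to 0.876. The sterile 3.0 mm array was closer still to the fertile arrays at 1.5 mm (0.933) and 2.0 mm (0.939). With those fertile arrays the other sterile arrays gave 0.931 to 0.956. Toward the fertile 3.0 mm array the correlation was 0.799 for the sterile 3.0 mm array, and 0.765 to 0.788 for the other sterile arrays. These coefficients describe 30590 probe sets on shared arrays, and they have no test.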

How the data were processed

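Anther RNA was hybridized to Affymetrix Wheat Genome Arrays, 1 array per treatment and length. The deposited values are linear signal intensities of 61290 probe sets, which the authors computed and scaled with MAS5 (version not named). After removal of 111 controls, intensities were floored at the 20th percentile (4.05) and log2-transformed, and the 30590 probe sets with the higher mean were tested. Gene names came from GEO's platform annotation, updated through RefSeq (IWGSC CS RefSeq v2.1): 1273 probe sets had 1 gene, 59906 had none and 200 carried a name other than a LOC number. Most probe sets therefore went unnamed.

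Slopes on length and long minus short differences of the sterile arrays were fitted with limma 3.58.1 in R 4.3.3 (eBayes with trend, Benjamini-Hochberg over all tested probe sets, two-sided, threshold 0.05). The fit had 3 residual degrees of freedom, and its p-values rest on the spread of single arrays about a line or about the means of long and short anthers, not on biological replicates. Sterile and fertile effects were compared by an interaction term over all 10 arrays. Scripts were tested on simulated data. Python 3.11.15, pandas 2.3.3, numpy 2.4.6 and matplotlib 3.10.9 were used.

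Genes named in the text were those past the threshold, then, up to 12 per direction and comparison, those of smallest unadjusted p among named probe sets whose length groups did not overlap, and up to 4 per gene list, with both RAFTIN genes always. Not every gene chosen per list is described. Cold and dehydration genes (3 probe sets tested, median slope -0.31) and defence genes and inhibitors (5, 0.03) were not described as lists, and 0 of them passed the trend test. GA20ox1b, PsbP, AGP-S, TEF1 and 1 probe set of XIP-I were added after their values were seen, as were the rbcl probe sets beyond the first. Of probe sets without a gene, the steepest 2 calls per direction were described, without their identifiers. The members and lists were chosen with earlier results of these data known. Other normalizations, floors, filters, variance priors, pairing of treatments by length and fits without each array were tried.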

Additional observations from a re-analysis of the deposited data

Results flagged for a closer look

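Of 48 measures screened on the log2 scale along the sterile series (6 of the arrays and 42 probe sets), 6 had a highest or lowest value whose gap to its neighbour, as a share of the whole range, exceeded Dixon's 95% critical value for 5 values. Chance gives this in about 1 of 20 groups, and the 5 lengths are a series rather than replicates. The 3.0 mm array was the one apart in 4 of the 6. There the 3′ probe set of the G6PDH control read 2792, against 403.3 to 703.0 at the other lengths (gap over range 0.713). PEAMT1 was high at 3.0 mm (918.7, 0.81), and H2A-9 in the probe set described above (1002, 0.742) and Tubb4, a tubulin (843.3, against 975.4 to 1020 at the other lengths, 0.765), were low. GSTZ1, a glutathione transferase, was low at 1.5 mm, with 22.1 against 36.9 to 40.5 at the other lengths (0.846). At 2.5 mm at2G04570 was low (6.46, 0.739).

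The long minus short difference of 1 probe set without a gene differed between sterile and fertile anthers in the interaction test, by 4.41 on the log2 scale (SE 0.38, limma adjusted p = 0.020), with values close to the floor in long fertile anthers. It did not pass with the arrays paired by length (adjusted p = 0.24).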

How the results depend on the processing

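The counts of calls depended on the processing. For the sterile trend (295 calls), 0 probe sets passed with the floor at the 40th percentile, without the filter, with eBayes without a trend or in a fit over all 10 arrays, and 581 passed when fewer, brighter probe sets were tested. Quantile normalization gave 198 calls (196 shared) and median centring 381 (292 shared), and leaving out 1 array gave 0 to 514, with 270 shared of the 455 without 2.2 mm and 272 of the 514 without 2.5 mm. For long minus short (0 calls), 38 passed without the filter, and 0 to 1 with an array left out. For that difference between treatments (1 call), 30 passed without the filter, 2 with eBayes without a trend, 0 without a floor, with the higher floor or among those brighter probe sets, and 0 to 125 with an array left out. The highest count came without the fertile 3.0 mm array. The slope difference (0 calls) gave 0 to 900, the highest without the fertile 1.5 mm array. Non-overlapping probe sets at least 2-fold apart (996) were 3149 without the filter, 3279 at 1.5-fold and 269 at 3-fold, and 855 to 1866 with an array left out, 1866 without 2.0 mm and 1521 without 2.5 mm. The 7139 differences over the 4 steps became 22050 at 1.5-fold and 2371 at 3-fold.

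Of 42 named probe sets, the long minus short difference kept its sign in 419 of 420 alternative values and the slope in 461 of 462. The exceptions were PRO1 (difference 0.08, and -0.03 to 0.20 with an array left out) and H+-ATPase (slope -0.16, and -0.46 to 0.04), both reversed without 1.5 mm. Of the 42, 31 were chosen by small p-values among probe sets with non-overlapping length groups, or as RAFTIN genes. Their kept signs were thus largely set by that choice. Of 16 alternatives for the trend, PRK and Prx1 passed in 9 of 16, TaRAFTIN1A in 8 of the 15 that kept its probe set and wcH2B-8 in 6 of 15. Under 10 of them (other scalings and floors, a prior without a trend, and arrays left out), slopes were 1.62 to 2.06 (PRK), 1.31 to 1.67 (TaRAFTIN1A), 1.11 to 1.51 (Prx1) and -0.83 to -0.48 (wcH2B-8) and over all alternatives the highest adjusted p-values were 0.38, 0.38, 0.47 and 0.47 in that order. The causes were not tested. The labels carry no replicate numbers, but each length has a sterile and a fertile array. With length as a replicate block, an alternative chosen after seeing the data, 0 probe sets passed for the long minus short difference between treatments and 0 for the slope difference (unadjusted p under 0.05 for 2537 and 3414). The comparisons within the sterile series have no pairs.

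The number of arrays limits precision: the median SE was 0.22 per mm for the slope and 0.23 for long minus short. Signals near the floor have no order, copies of RAFTIN and histone genes may not be separated, and length cannot be told apart from any feature that changed with it on a single array.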

Other observations

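The G6PDH control probe sets lie outside the tested set, and the 3′ one followed a different course in each treatment. It read 403.3, 443.4, 703.0, 502.3 and 2792 along the sterile lengths, against 1567, 1492, 4237, 3250 and 276.7 along the fertile ones. The sterile signal was thus lowest at 1.5 mm and highest at 3.0 mm, where the fertile signal was lowest.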
